A study of Mus musculus with 25 samples.

Results

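The 39 genes followed here mark the passage of a neural progenitor into a young neuron and the later building of axons and synapses. They were listed by symbol, with no threshold on their values, and 37 of them were measured, among 18820 genes named on the array. Elavl3 had no entry in the array's gene annotation used here, and Tubb3, the neuronal beta-tubulin, lay on a transcript cluster shared with Mc1r, so both were left out of the counts. Expression was measured in the mammillary neuroepithelium, the caudal hypothalamic wall that later forms the mammillary body, of C57BL/6 mouse embryos at E10.5 (days of embryonic development), with 1 Affymetrix Mouse Gene 1.1 ST array per sample. The WT group held 12 arrays. The KO group held 13 arrays of embryos homozygous for a floxed Lhx5 allele (Lhx5 fl/fl) that had not been recombined by Cre and that the study describes as a hypomorph with loss of LHX5 protein. Both groups shared strain and age, and no Cre line is named for them. The question put to these genes was whether neuronal differentiation already differed at an age when no loss of tissue can yet be seen.

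When a neuroepithelial cell leaves the cell cycle, basic helix-loop-helix proteins such as the NEUROD and NHLH factors, together with zinc-finger, EBF and ONECUT factors, switch on the neuronal programme. Tubulin- and microtubule-binding proteins and RNA-binding ELAVL proteins appear soon after that step, whereas neurofilaments, synaptic vesicle proteins and transmitter transporters accumulate as the axon grows and synapses form. In the early hypothalamus progenitors line the ventricle and the first neurons settle in a thin mantle outside them, so a dissected piece holds both. In a bulk sample of this kind, fewer neurons and less RNA of these genes per neuron cannot be told apart.

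Values are log2 RMA values, a background-corrected and quantile-normalised summary of a cluster's probes, and array medians lay between 4.64 and 4.76. Regional genes of the labelled tissue were measured at WT means of 7.82 for Nkx2-1, 8.24 for Sim1 and 7.97 for Lhx5. Lhx5 itself, which keeps its exons in this allele, was at 7.92 in KO, a difference of -0.04 ± 0.17 (SE; limma adjusted p = 0.960). The KO arrays were not a single set: for all 37 genes the mean of KO replicates 1 to 10 equalled that of KO replicates 11 to 13 to within 5.33e-06, far closer than their spread among arrays, and no step that would set them equal is given in the sources used here. Differences between KO and WT were therefore taken from a fit with a term for KO replicates 1 to 10, which rests on KO replicates 11 to 13 (n = 3) against WT (n = 12), and the other 10 KO arrays entered the spread alone. Whether those 3 arrays and the WT arrays were handled together is not given in the sources used here, so genotype and handling cannot be told apart.

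The neuronal genes varied together from array to array, in WT and in KO alike. On each array the mean of the 37 genes was taken as the neuronal level. For every r with the neuronal level or with the mean of the other genes, each gene was first standardised within its set of arrays. Other uses took the plain mean of log2 values. In WT the neuronal level ran from 6.34 in replicate 11 to 7.69 in replicate 7, with a median of 7.11, a gap of 1.35 on the log2 scale or 2.54-fold. In KO replicates 1 to 10 it ran from 6.35 in replicate 10 to 7.53 in replicate 5, or 2.27-fold, with a median of 6.98. KO replicates 11, 12 and 13 stood at 6.92, 6.89 and 7.10, inside the WT range. The extremes were the same arrays for most genes. WT replicate 11 was the lowest WT array for 31 of the 37 genes and WT replicate 7 the highest for 25, while KO replicate 10 was lowest for 27 and KO replicate 5 highest for 20. The range across WT arrays was 1.42 (log2) for the median gene, from 0.35 for Neurod6 to 2.81 for Slc17a6.

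**Figure D1:**
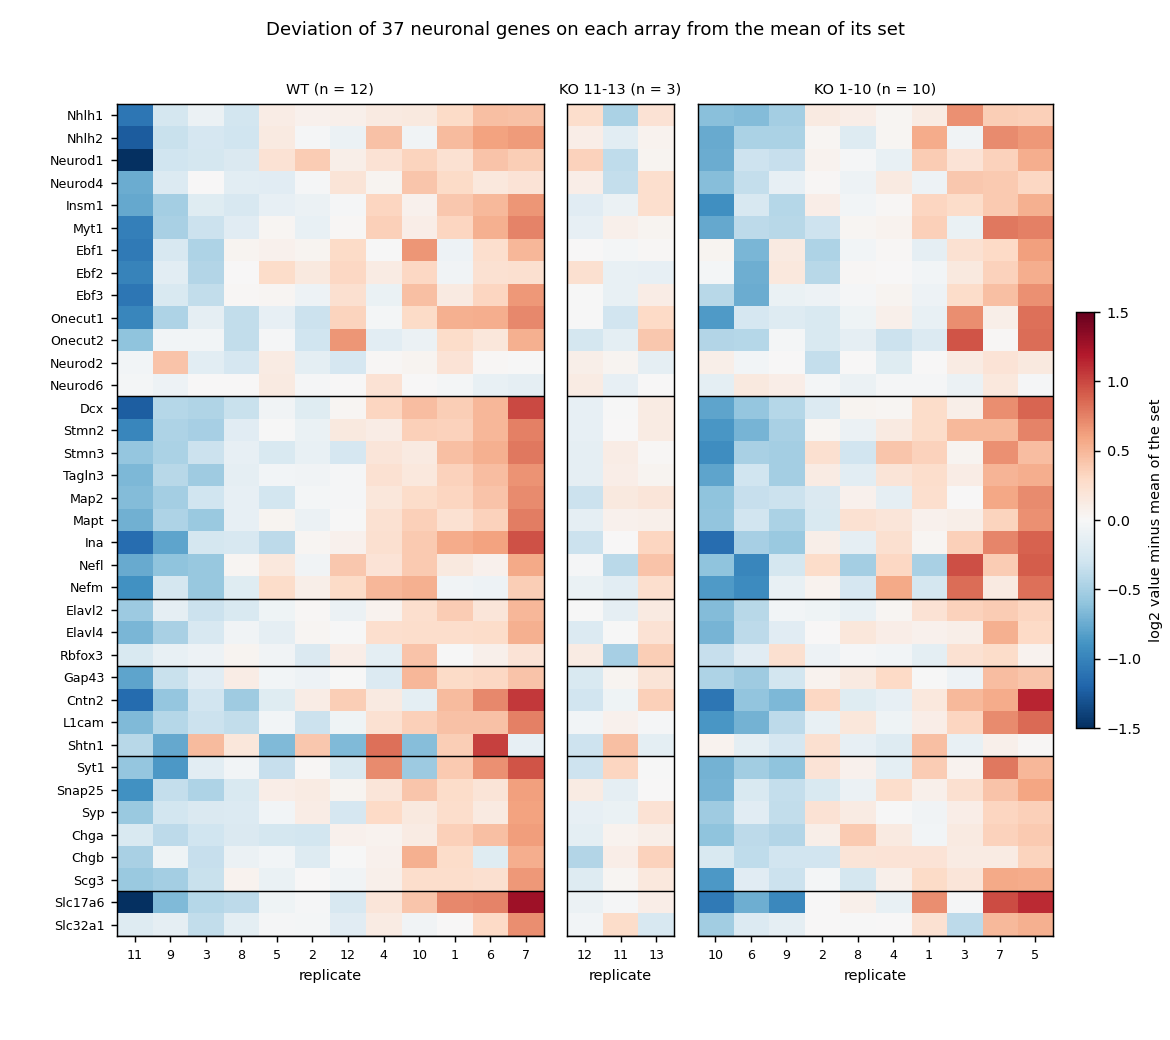
Each row is 1 of the 37 neuronal genes and each column 1 array, labelled by replicate and ordered within WT, KO replicates 11 to 13 and KO replicates 1 to 10 by the mean of the 37 genes; colour is the log2 value minus the mean of that set of arrays, with deviations beyond 1.5 shown at the end of the scale. Most rows run from blue on the left to red on the right in both large sets, a pattern that ordering by the mean of the same genes favours. Neurod6, Neurod2 and Shtn1 do not follow that order.

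Pairwise correlations gave the same picture as a description of these arrays, which share a dissection, a platform and a normalisation. Of the 666 gene pairs, 47.7% had a Pearson r above 0.8 in WT (median r 0.79, n = 12 arrays) and 45.8% in KO replicates 1 to 10 (median 0.78, n = 10). Negative pairs made up 7.51% and 3.15%. A single principal component held 79.6% of the variance of the 37 genes in WT and 80.1% in KO replicates 1 to 10. The shares of pairs and of variance were not computed for other genes of the array. For 25 genes, r with the mean of the other 36 was above 0.8 in both sets. Over all 18814 named genes that could be compared, 1.56% reached that mark with the same profile in both sets.

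Dcx, which encodes the microtubule-binding protein doublecortin of migrating neurons, followed the rest most closely, with r of 0.99 in WT and 0.98 in KO replicates 1 to 10. Stmn2, a tubulin-binding stathmin of growing axons, had 0.99 and 0.98, and the adhesion molecule gene L1cam 0.95 and 0.99. At the other end, Neurod6 had -0.13 and 0.11, Neurod2 0.015 and 0.30, and Shtn1 0.27 and 0.19. Neurod2 and Neurod6 are factors of postmitotic excitatory neurons, best known from the cortex, and both were among the 4 members whose mean lay below 4.69, the median of all clusters. The other 2 were Shtn1, which encodes the axon outgrowth protein shootin 1, and Slc32a1, the vesicular transporter of GABA and glycine. Between these ends lay Rbfox3 (0.61 and 0.59), which encodes the neuronal nuclear protein NeuN, and the homeobox gene Onecut2 (0.66 and 0.66). Ebf1 and Ebf2 had 0.85 and 0.80 in WT and 0.60 and 0.65 in KO replicates 1 to 10, and the difference between sets was not tested.

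**Figure D2:**
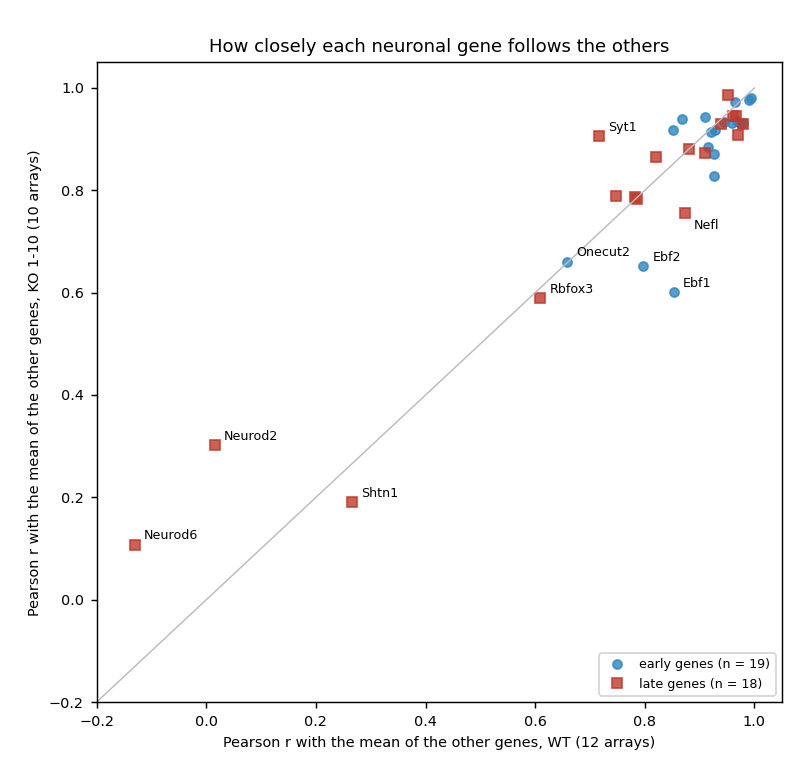
Pearson r of each gene with the mean of the other 36 genes, each standardised within its set, in WT (x axis, 12 arrays) and in KO replicates 1 to 10 (y axis, 10 arrays). Circles are the 19 early genes, squares the 18 late genes and the line marks equal values. Most genes lie at the upper right, 25 of them above 0.8 on both axes, and Neurod6, Neurod2 and Shtn1 lie below 0.5 on both.

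Within each set 4 pairs of genes were tested, 8 relations in all, with Dcx in the place of Tubb3. Dcx and Stmn2 correlated with r = 0.98 and rho = 0.99 in WT (permutation test, p = 1e-05 for both, the smallest that 100000 permutations can give) and with r = 0.94 and rho = 0.93 in KO replicates 1 to 10 (permutation p = 4e-05 and 0.00021). Without the 2 arrays farthest from the median of Dcx, r was 0.96 and 0.88. Nhlh1, an early basic helix-loop-helix gene, and Dcx gave r = 0.92 and rho = 0.95 in WT (permutation p = 1e-05 and 2e-05) and r = 0.80 and rho = 0.82 in KO replicates 1 to 10 (permutation p = 0.00564 and 0.0057), where r was 0.61 without 2 arrays. Neurod4 and Nhlh1 gave r = 0.88 and rho = 0.78 in WT (permutation p = 0.00099 and 0.00403) and 0.90 and 0.92 in KO replicates 1 to 10 (permutation p = 0.0004 and 0.00058), and r was 0.78 and 0.84 without 2 arrays. Dcx and the synaptic vesicle gene Syt1 had the lowest r in WT, 0.70 with rho = 0.63 (permutation p = 0.0101 and 0.0315), and r was 0.55 without replicates 7 and 11. In KO replicates 1 to 10 the same pair gave r = 0.92 and rho = 0.89 (permutation p = 0.00032 and 0.00121), and 0.91 without 2 arrays. After Benjamini-Hochberg adjustment over the 8 relations the p-values of r lay between 4e-05 and 0.0101 and those of rho between 8e-05 and 0.0315.

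The basic helix-loop-helix factors of this list bind short E-box sequences, and CAGATG is the form favoured by the NEUROD family. Promoters (250 bases before to 50 after the start, 300 in all; RefSeq, GRCm38.p6) were at hand for 29 of the 39 genes, with 45 starts. CAGATG or its reverse complement CATCTG stood in 10 of these 45 promoters (22.2%), against 5635 of all 32851 promoters (17.2%), a description without a test. It was found for Elavl4, L1cam, Neurod2, Nhlh1, Nhlh2, Slc17a6 and Stmn3. Among these genes Neurod2 followed the neuronal level loosely, with r of 0.015 in WT and 0.30 in KO replicates 1 to 10. The others had r above 0.8 in both sets, as had 25 of all 37 measured genes. The promoters below are examples, not picked by a rule. They are those of Nhlh1 (chr1:172057547-172057846), L1cam (chrX:73880785-73881084), Dcx (chrX:143933170-143933469) and Neurod2 (chr11:98329596-98329895), all on the minus strand and written in the direction of the gene, with CAGATG in capitals.
Nhlh1: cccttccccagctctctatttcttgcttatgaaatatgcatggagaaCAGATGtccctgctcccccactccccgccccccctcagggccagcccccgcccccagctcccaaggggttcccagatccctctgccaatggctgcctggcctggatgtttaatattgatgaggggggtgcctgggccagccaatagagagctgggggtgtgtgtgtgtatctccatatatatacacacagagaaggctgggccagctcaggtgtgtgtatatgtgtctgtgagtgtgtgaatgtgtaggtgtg
L1cam: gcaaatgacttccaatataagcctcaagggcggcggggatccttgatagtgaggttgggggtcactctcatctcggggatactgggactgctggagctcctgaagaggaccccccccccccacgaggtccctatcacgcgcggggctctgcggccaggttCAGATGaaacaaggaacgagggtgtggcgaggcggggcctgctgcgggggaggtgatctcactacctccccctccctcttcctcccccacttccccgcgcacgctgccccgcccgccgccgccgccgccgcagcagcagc
Dcx: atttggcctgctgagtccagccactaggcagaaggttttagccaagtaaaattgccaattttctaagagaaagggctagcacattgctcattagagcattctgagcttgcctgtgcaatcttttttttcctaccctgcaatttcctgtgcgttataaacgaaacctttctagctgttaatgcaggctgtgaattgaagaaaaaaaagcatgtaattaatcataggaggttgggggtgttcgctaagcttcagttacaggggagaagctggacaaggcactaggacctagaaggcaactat
Neurod2: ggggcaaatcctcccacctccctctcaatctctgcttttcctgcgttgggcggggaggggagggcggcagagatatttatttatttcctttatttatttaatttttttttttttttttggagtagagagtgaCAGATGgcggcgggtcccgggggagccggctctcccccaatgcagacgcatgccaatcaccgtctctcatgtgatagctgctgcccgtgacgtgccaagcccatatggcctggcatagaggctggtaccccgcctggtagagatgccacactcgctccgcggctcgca
Counted from the start, the match began at -203 in Nhlh1, -90 in L1cam and -118 in Neurod2, and the Dcx window held none.

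Between KO and WT, none of the 37 genes passed. The count of 0 of 37 stands beside 7 of 28940 clusters called over the whole array (0.0242%), and the members' adjusted p in limma ran from 0.274 to 0.997. At an unadjusted p below 0.05, Neurod6 was higher and Shtn1 lower, 1 of 37 each way, where 6.2% of all clusters were higher and 4.15% lower. Differences of most members lay below 0: 31 of 37, or 83.8%, against 48.2% of all clusters. Their median was -0.16 on the log2 scale, against 0.0052 over all clusters. Since these genes rise and fall together among arrays, the 37 signs are far from independent, and 1 array bears on all of them. The median was -0.25 without WT replicate 11, the array with the lowest neuronal level, and -0.09 without KO replicate 12. For 35 of 37 genes the difference was smaller than 1 SD of the WT arrays, and for 33 the 95% interval lay within ±1 on the log2 scale, while for Syt1, Cntn2, Shtn1 and Slc17a6 it reached below -1. No gene had all 3 KO arrays 11 to 13 above or below every WT array, where 0.536% and 0.619% of all clusters had.

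With genotype as the only term, which counts all 13 KO arrays as evidence of the difference, 1 member passed in each direction, Neurod6 higher (limma adjusted p = 0.0017) and Shtn1 lower (0.0070). That fit called 9.68% of all clusters higher and 6.99% lower, so 1 of 37 each way is below its background.

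**Figure D3:**
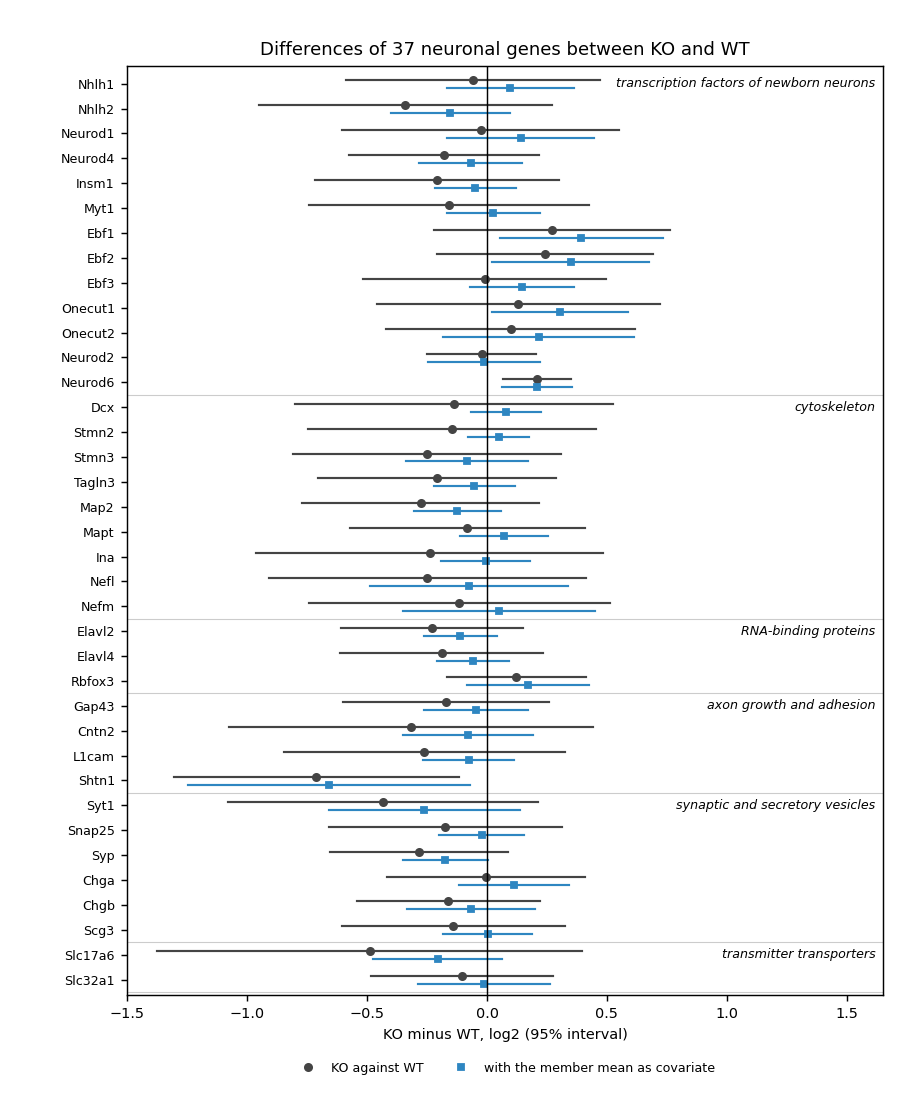
Difference of each of the 37 neuronal genes between KO and WT (x axis, log2) with its 95% interval, grouped by role; circles are the fit with a term for KO replicates 1 to 10 and squares the same fit with the mean of the 37 genes on each array as a covariate. Circles lie left of 0 for 31 genes, with intervals that span 0 for all but Neurod6 and Shtn1. The squares have shorter intervals for 35 genes and lie closer to 0 for 28, with a median of -0.015. Since the covariate is the mean of the same genes, the squares average 0 by construction. They lie farther from 0 for Nhlh1, Neurod1, Ebf1, Ebf2, Ebf3, Onecut1, Onecut2, Chga and Rbfox3.

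The 13 transcription factors of young neurons had a median difference of -0.02, with 8 below 0 and 5 above. Nhlh1 ran from 5.67 to 7.21 in WT (median 6.84) and stood at 6.23, 6.96 and 6.91 in KO replicates 11 to 13. Those 3 arrays lay inside the WT range, and the difference was -0.06 ± 0.26 (SE; adjusted p = 0.964 in limma). Its paralogue Nhlh2 ran from 4.71 to 6.59 in WT and was 5.46, 5.71 and 5.66 in KO, a difference of -0.34 ± 0.30 (adjusted p = 0.744). Neurod4, which drives early neuronal commitment, ran from 6.91 to 8.08 in WT and stood at 7.12, 7.58 and 7.74 in KO replicates 11 to 13, all within that range. Differences were -0.18 ± 0.19 for Neurod4 and -0.03 ± 0.28 for Neurod1, a factor of neuronal differentiation. Insm1, a zinc-finger gene of delaminating progenitors, and Myt1, a zinc-finger factor of newborn neurons, had -0.21 ± 0.25 and -0.16 ± 0.28. For these 6 genes KO replicates 11 to 13 all lay inside the WT range, whereas some of KO replicates 1 to 10 lay outside it for Nhlh1, Neurod4, Neurod1 and Insm1.

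Of the EBF factors, which act in early neuronal differentiation, Ebf1 and Ebf2 were among the few members with differences above 0. Ebf1 ran from 7.77 to 9.49 in WT (median 8.87) and stood at 9.08, 9.11 and 9.12 in KO replicates 11 to 13, all above the WT median and below the highest WT array. The difference was 0.27 ± 0.24 (limma adjusted p = 0.749). Ebf2 ran from 6.69 to 8.01 in WT, and KO arrays stood at 7.82, 8.17 and 7.81, 1 of them above every WT array. Its difference was 0.24 ± 0.22 (adjusted p = 0.757), and a second, dimmer Ebf2 cluster gave 0.06 ± 0.06. Ebf3 differed by -0.010 ± 0.25. The cut-homeodomain genes Onecut1 and Onecut2 gave 0.13 ± 0.29 and 0.10 ± 0.25, with KO replicates 11 to 13 inside the WT ranges.

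Neurod6 had the smallest p of the 37 genes. It ran from 2.16 to 2.51 in WT (median 2.28), and KO replicates 11 to 13 stood at 2.37, 2.62 and 2.50, all above the WT median and 1 above every WT array. KO replicates 1 to 10 ran from 2.35 to 2.65. The difference was 0.21 ± 0.07 (95% interval 0.07 to 0.35), with an unadjusted p of 0.0059 and an adjusted p of 0.274 in limma, and the exact permutation test over all splits of the 15 arrays gave p = 0.011 (two-sided; the smallest possible is 0.0022). The whole table runs from 1.54 to 13.62, so the cluster sits near its floor in both groups. Neurod2 ran from 3.28 to 3.97 in WT and differed by -0.02 ± 0.11.

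All 9 measured cytoskeletal genes had differences below 0, from -0.28 to -0.08 with a median of -0.21, and none passed. Dcx ran from 7.57 to 9.80 in WT (median 8.80), a 4.70-fold range, and stood at 8.67, 8.55 and 8.79 in KO replicates 11 to 13. These 3 arrays lay close together in the middle of the WT range, and the difference was -0.14 ± 0.32 (limma adjusted p = 0.925). Stmn2 ran from 9.02 to 10.76 in WT and was 9.85, 9.73 and 9.97 in KO, a difference of -0.15 ± 0.29 (adjusted p = 0.906). Its relative Stmn3 gave -0.25 ± 0.27, and a second, dimmer Stmn3 cluster gave -0.24 ± 0.08 (unadjusted p = 0.00799, adjusted p = 0.285). The calponin-family Tagln3 gave -0.21 ± 0.24, and the microtubule-associated Map2 and Mapt, of dendrites and axons, gave -0.28 ± 0.24 and -0.08 ± 0.24. Ina, the alpha-internexin of early neurons, differed by -0.24 ± 0.35, and the neurofilament genes Nefl and Nefm by -0.25 ± 0.32 and -0.12 ± 0.30. The neurofilaments spread more among KO replicates 1 to 10 (SD 0.66 and 0.62) than among WT arrays (0.43 and 0.44), a difference that was not tested. The cluster that Tubb3 shares with Mc1r differed by -0.26 ± 0.23 (adjusted p = 0.742).

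The ELAVL proteins stabilise neuronal messenger RNAs, and NeuN (Rbfox3) regulates their splicing. Elavl2 differed by -0.23 ± 0.18 and Elavl4 by -0.19 ± 0.21. Rbfox3 ran from 6.53 to 7.18 in WT and stood at 6.38, 6.997 and 7.25 in KO replicates 11 to 13, so that 1 KO array lay below and 1 above every WT array. Its difference was 0.12 ± 0.14 (limma adjusted p = 0.819).

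Among the genes of axon growth and adhesion, Shtn1 had the widest difference of all 37. It ran from 3.38 to 5.17 in WT (median 4.17), and KO replicates 11 to 13 stood at 3.89, 3.12 and 3.29, of which 2 lay below every WT array. KO replicates 1 to 10 ran from 3.18 to 3.88. The WT arrays were the more scattered, with an SD of 0.63 against 0.22 in KO replicates 1 to 10, and the lower WT arrays overlapped the KO range. The difference was -0.71 ± 0.29 (95% interval -1.31 to -0.12; unadjusted p = 0.0209, adjusted p = 0.371 in limma), and the exact permutation test gave p = 0.0879. Shtn1 was among the candidates that the study took from these arrays, so its direction here is not independent evidence. The study also places it among the genes whose array result it checked by qPCR.

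L1cam, an adhesion molecule of growing axons, ran from 5.96 to 7.38 in WT and stood at 6.42, 6.32 and 6.34 in KO replicates 11 to 13, a difference of -0.26 ± 0.28. Cntn2, the contactin of early axon tracts, spread from 5.59 to 7.80 in WT, a 4.64-fold range, with KO arrays at 6.36, 6.14 and 6.78, and differed by -0.32 ± 0.37. Gap43, a growth cone protein gene, differed by -0.17 ± 0.21. For these 3 genes KO replicates 11 to 13 all lay inside the WT range and limma's adjusted p lay between 0.806 and 0.829.

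The 6 genes of synaptic and secretory vesicles had a median difference of -0.17, all below 0. Syt1, the calcium sensor of vesicle release, ran from 5.92 to 7.72 in WT (median 6.68) and stood at 6.66, 6.03 and 6.33 in KO replicates 11 to 13. All 3 lay below the WT median and inside the WT range, with a difference of -0.43 ± 0.31 (limma adjusted p = 0.677). Syp, which encodes synaptophysin, ran from 5.33 to 6.48 in WT with KO arrays at 5.50, 5.48 and 5.82, a difference of -0.28 ± 0.18 (adjusted p = 0.619; exact permutation p = 0.171). The membrane fusion gene Snap25 gave -0.17 ± 0.24. The granin genes of dense-core vesicles, Chga, Chgb and Scg3, gave -0.0045 ± 0.20, -0.16 ± 0.19 and -0.14 ± 0.23, and for Chgb 1 KO array lay below every WT array.

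Slc17a6 encodes the vesicular glutamate transporter VGLUT2 of subcortical excitatory neurons, mammillary neurons among them. It had the widest spread of the 37 genes, from 4.81 to 7.62 in WT, a 7.02-fold range, with a median of 6.31. KO replicates 11 to 13 stood at 5.85, 5.78 and 5.97, all below the WT median, and the difference was -0.49 ± 0.43 with a 95% interval from -1.38 to 0.40 (limma adjusted p = 0.748). It followed the neuronal level with r of 0.98 in WT and 0.93 in KO replicates 1 to 10 and changed by 2.08 and 1.97 log2 units for each log2 unit of the mean of the other genes. Slc32a1, the transporter of inhibitory neurons, differed by -0.10 ± 0.18.

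**Figure D4:**
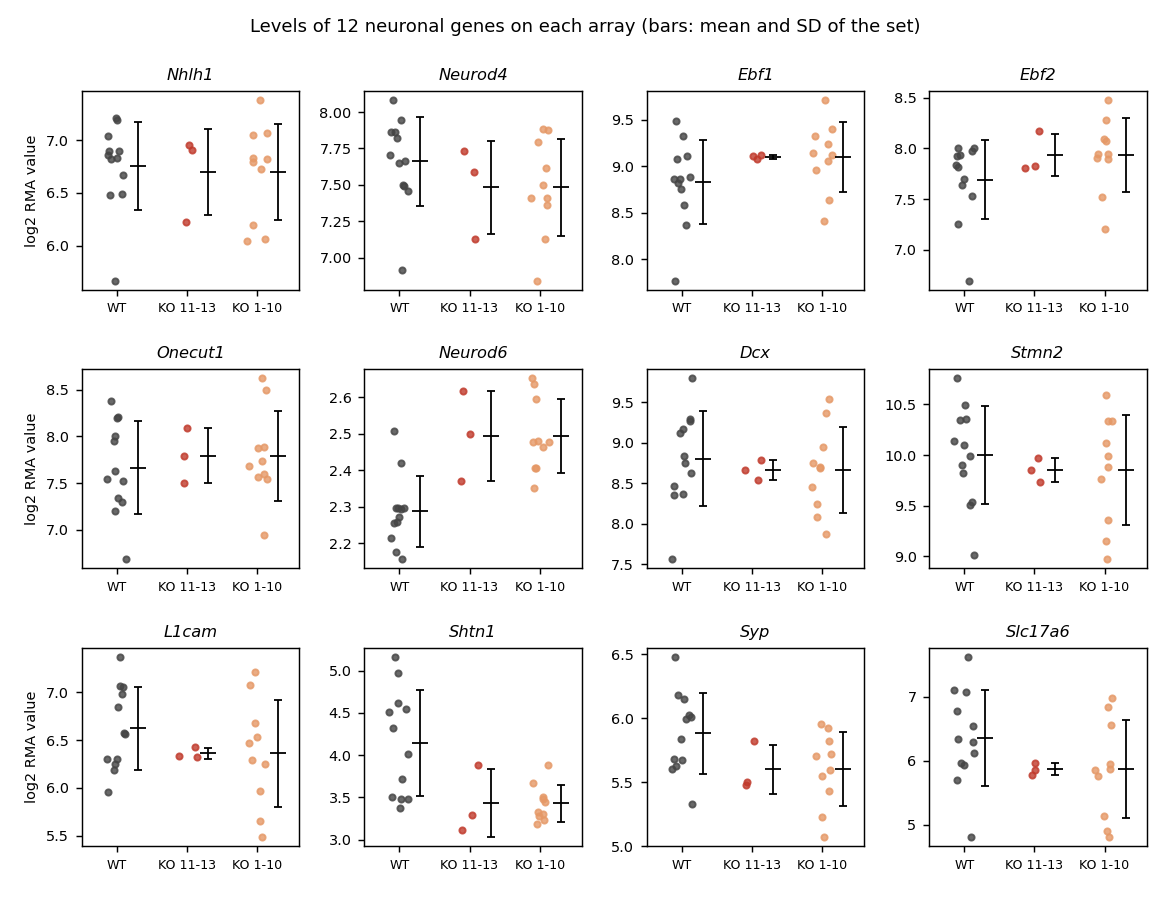
Log2 RMA values (y axis, scaled separately in each panel) of 12 neuronal genes on each array of WT (n = 12), KO replicates 11 to 13 (n = 3) and KO replicates 1 to 10 (n = 10); points are arrays and bars the mean and SD. The 2 KO sets share their means, the KO and WT points overlap for all 12 genes, and Neurod6 and Shtn1 show the clearest offset.

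Early genes, expressed from the last division onwards, and late genes had similar medians. The late class is all other members, mostly genes of axons and synapses, with Neurod2, Neurod6 and Rbfox3 among them. The 19 early genes had a median difference of -0.16, with 15 below 0, and the 18 late genes -0.17, with 16 below 0. Early and late means rose and fell together among arrays, with r of 0.97 in WT and 0.99 in KO replicates 1 to 10. Early genes were more tightly tied to each other (median pair r 0.87 and 0.85) than late genes (0.70 and 0.65), with pairs of 1 early and 1 late gene between them (0.78 and 0.77), a description without a test. The late class holds all 4 members with a mean below the median of all clusters (Neurod2, Neurod6, Shtn1 and Slc32a1). Of these, Neurod2, Neurod6 and Shtn1 had r below 0.5 with the other genes in both sets. Stage and signal level therefore cannot be told apart here. WT replicate 11 stood apart in the gap between the early and the late mean, at 1.32, where the other WT arrays ran from 1.61 to 1.89.

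When the neuronal level of each array was added to the fit as a covariate, a step chosen after the data were seen, the median SE of the 37 genes was 0.11 in place of 0.25 and the median difference was -0.015. Again no member passed. At an unadjusted p below 0.05, 4 of 37 genes were higher and 1 lower, where 6.03% and 4.47% of all clusters were. The 4 were Neurod6, Ebf1 (0.39 ± 0.17; limma adjusted p = 0.384), Ebf2 (0.35 ± 0.16; 0.437) and Onecut1 (0.30 ± 0.14; 0.436), and the lower 1 was Shtn1 (-0.66 ± 0.29; 0.409). Dcx differed by 0.08 ± 0.07 at equal neuronal level, with a 95% interval from -0.07 to 0.23, and Stmn2 by 0.05 ± 0.06. The covariate is made from the same genes, so the members' differences cancel on average by construction. Each member's value there is relative to the others, and a smaller median difference was fixed in advance.

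Other neuronal genes also lay mostly below 0. In a second list of 51 neuronal genes, 49 were measured, with 40 differences below 0, a median of -0.19 and 0 called. At an unadjusted p below 0.05, 3 were lower and 0 higher, where 4.15% of all clusters were lower and 6.2% higher. Gad2, a GABA-synthesising enzyme, differed by -0.93 ± 0.42 (p = 0.0375, limma adjusted p = 0.445), Sox4, a factor of early neurons, by -0.28 ± 0.13 (0.481 adjusted) and Scg5, a secretory granule chaperone, by -0.25 ± 0.12 (0.482 adjusted). Gad2 is among the candidates that the study took from these arrays, so its direction is not independent evidence. With genotype as the only term 6 of the 49 were called lower and 0 higher, beside 6.99% and 9.68% of all clusters. Of the 49, 26 had r above 0.8 with the neuronal level in both sets. Among 20 measured genes of the proneural and Notch pathways, which time the exit from the progenitor state, 14 lay below 0 with a median of -0.08, and 1, the Notch ligand gene Dll4 (0.33 ± 0.11; p = 0.0077, adjusted p = 0.283), was higher at an unadjusted p below 0.05. The median r of the 20 with the neuronal level was 0.41 in WT and 0.59 in KO replicates 1 to 10. Of them, 2 had r above 0.8 in both sets, where 1.56% of all named genes had. Hes1, the Notch target that holds cells as progenitors, ran against the neuronal level, with r of -0.87 in WT and in KO replicates 1 to 10. It was the 1 gene of the 20 below -0.8 in both sets, where 0.133% of all named genes lay. Hes5, a related Notch target, had 0.59 and 0.84. Of 13 progenitor genes, 1 was above 0.8 in both sets, the intermediate filament gene Nes (0.94 and 0.89). Hes1, Hes5 and Nes were chosen after their values were seen.

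The 10 named genes outside these lists with the closest profile were Cadps, Hecw1, Mapk10, Chrnb2, Klhl35, Fam78b, Dclk1, Csrnp3, Prkar1b and Gpc2, with mean r over both sets from 0.95 for Gpc2 to 0.97 for Cadps. Cadps primes dense-core vesicles for release, Dclk1 is a relative of doublecortin and Chrnb2 encodes a neuronal nicotinic receptor subunit. Their differences between KO and WT ran from -0.33 ± 0.19 for Gpc2 to 0.014 ± 0.32 for Mapk10. The most opposed profile was that of Rab11fip1 (mean r -0.90), named after its value was seen.

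Markers of the other cells in such a dissection were read beside these results. Progenitor genes had 11 of 13 differences below 0 (median -0.08) and hypothalamic regional genes 5 of 6 (median -0.24). At an unadjusted p below 0.05, where 4.15% of all clusters were lower and 6.2% higher, each list had 0 higher and 2 lower genes. They were the cyclin gene Ccnd1 (-0.30 ± 0.08; p = 0.0011, limma adjusted p = 0.179) and the SOXB1 factor gene Sox1 (-0.71 ± 0.32; p = 0.0359, adjusted p = 0.441) among progenitor genes, and the homeobox genes Rax (-1.27 ± 0.39; p = 0.0033, adjusted p = 0.242) and Otp (-1.28 ± 0.55; p = 0.0267, adjusted p = 0.404) among regional genes. The study lists Sox1, Rax and Otp among its candidates from these arrays, so their direction is not independent evidence. For Otp the study also reports lower levels by qPCR and weaker labelling by in situ hybridisation. The hybridisation was done on older embryos and set Lhx5 fl/fl against Lhx5 fl/+ rather than WT. Differences above 0 were found for all 8 markers of mesenchyme (median 0.18), all 7 of endothelium (0.12), all 5 measured of red cells (0.27), all 6 of macrophages (0.13) and all 5 of surface ectoderm (0.22), and for 2 of 3 of neural crest and 3 of 6 of sensory ganglion neurons. None was called. The mean of the mesenchymal genes ran from 7.46 to 8.34 in WT and from 8.02 to 8.52 in KO replicates 11 to 13, that of endothelium from 6.87 to 7.75 and from 7.58 to 7.95, that of red cells from 10.02 to 11.17 and from 10.47 to 10.93, that of macrophages from 4.37 to 5.57 and from 4.89 to 5.59, and that of surface ectoderm from 6.05 to 6.84 and from 6.38 to 7.03. No defining marker of mesenchyme, endothelium, red cells or surface ectoderm lay below 4 in mean level, against 1 of 6 for macrophages, 1 of 3 for neural crest and 2 of 6 for ganglion neurons. Among the 8 mesenchymal markers 1, Pdgfrb, was higher at an unadjusted p below 0.05 (0.38 ± 0.18; p = 0.0403, limma adjusted p = 0.454) and 0 were lower. The lists of endothelium, red cells, macrophages, surface ectoderm, neural crest and ganglion neurons had 0 genes at that mark in either direction. The part of these cell types in the neuronal differences was not tested. The macrophage genes had a median r with the neuronal level of 0.76 in WT and 0.086 in KO replicates 1 to 10, and the endothelial genes 0.45 and -0.41, differences between sets that were not tested. Xist minus the mean of the Y-linked Eif2s3y, Kdm5d and Uty, high in female embryos, was split at its widest gap. The split was made separately for KO replicates 1 to 10 and for the other arrays. High scores were found on 8 of 12 WT arrays, 2 of 3 KO arrays 11 to 13 and 3 of 10 of KO 1 to 10. With sex so assigned as a term 0 members were called.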

How the data were processed

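Labelled RNA was hybridised to 25 arrays. The deposited values are log2 expression, summarised by the authors with RMA (robust multiarray averaging); their notes name Affymetrix Expression Console 1.0, affy and R 2.7.0, and the sources used here give no batch correction. Of 35556 probe sets, 6616 without annotation and with low identifiers were dropped. A further 14 values above 14 (32.32 to 10464, on 11 arrays) cannot be RMA values and were treated as missing. That left 28940 transcript clusters, 21218 of them with a single symbol. A gene with several clusters was read from the brightest. Every cluster entered 1 limma fit (limma 3.58.1, R 4.3.3; genotype plus a term for KO replicates 1 to 10), two-sided, with Benjamini-Hochberg adjustment over all clusters and calls at an adjusted p below 0.05. Members were also compared by exact permutation of the 15 arrays of WT and KO replicates 11 to 13. The labels call the samples biological replicates. Whether an array holds 1 embryo or a pool is not given in the sources used here, so p-values measure the spread between these samples. The number of arrays limits the precision.

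Members and lists were chosen with earlier results of these data known. Genes were named by rule: all measured members, up to 4 genes of each other list with the smallest p, the 10 genes outside the lists closest to the members' profile, and Lhx5. Any other gene is marked as picked once its value had been seen. Equal replicate numbers in the 2 groups did not pair the arrays. The fits were tested on simulated data. The alternatives tried were genotype alone, WT with KO replicates 11 to 13 alone, a replicate block, embryo sex, quantile normalisation repeated, median centring, a filter on dim clusters, limma-trend, array weights, averaging of a symbol's clusters, and each array left out in turn. The members' mean as a covariate and the block with genotype alone were added after the data were seen. Plots were made in Python 3.11.15 (matplotlib 3.10.9, numpy 2.4.6, pandas 2.3.3).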

Additional observations from a re-analysis of the deposited data

How the results depend on the processing

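With the KO 1 to 10 term, or with WT and KO replicates 11 to 13 alone, 0 members were called under the alternatives listed in the processing notes, each of the 25 single arrays left out included (smallest member adjusted p 0.190). Without it, genotype alone called 2 members among 4825 clusters, with 4 members at an unadjusted p below 0.05, and genotype with a replicate block called 3 (Shtn1, Neurod6 and Syp) among 3637, with 7 at that unadjusted p. The share of all clusters at that unadjusted p was not counted for these fits. The replicate numbers did not pair the arrays (r of same-numbered arrays from -0.33 to 0.43, 4 of 12 above 0.1, 0 KO arrays closest to their own number). The replicate block beside the KO 1 to 10 term, where the difference rests on replicates 11 and 12 of each group, left 0 clusters and 0 members called and 1 member below an unadjusted p of 0.05, put the median difference at 0.13 and the early minus late median at 0.14 (0.0084 without the block), and turned the sign of 26 members, none of them called: Neurod1 0.65, Dcx 0.41, Ebf3 0.36, Slc17a6 0.35, Nhlh1 0.34, Myt1 0.32, Nhlh2 0.30, Snap25 0.25, Mapt 0.24, Stmn2 0.21, Slc32a1 0.20, Neurod2 0.19, Stmn3 0.15, Ina 0.14, Gap43 0.13, Tagln3 0.12, L1cam 0.11, Scg3 0.084, Nefm 0.064, Insm1 0.058, Elavl4 0.050, Chga 0.031, Elavl2 0.018, Syp 0.010, Rbfox3 -0.0015, Onecut2 -0.13. Of the members that kept their sign under the block, Shtn1 was at -0.096 ± 0.39, Syt1 at -0.026, Map2 at -0.028, Neurod4 at -0.032, Chgb at -0.086 and Cntn2 at -0.10, each nearer to 0, and Ebf1 at 0.65, Ebf2 at 0.65 and Onecut1 at 0.30, farther from it. With the members' mean as a covariate, which makes the members' differences average 0, 5 members had an unadjusted p below 0.05 and 10 that were below 0 lay above it: Ebf3 0.14, Neurod1 0.14, Chga 0.11, Nhlh1 0.10, Dcx 0.078, Mapt 0.070, Stmn2 0.050, Nefm 0.048, Myt1 0.025, Scg3 0.0020. Sign also turned for Chga 0.029, Neurod1 0.0037 and Ebf3 0.0029 under quantile normalisation and for Neurod2 0.0082 and Onecut2 -0.017 under array weights.

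Leaving out 1 array turned the sign of 10 members (Chga -0.049 to 0.067, Chgb -0.33 to 0.058, Ebf3 -0.11 to 0.049, Neurod1 -0.20 to 0.17, Neurod2 -0.068 to 0.045, Nhlh1 -0.19 to 0.18, Onecut1 -0.018 to 0.28, Onecut2 -0.11 to 0.23, Rbfox3 -0.065 to 0.37, Slc32a1 -0.24 to 0.018) and of none of the other 27. It gave 0 (without KO replicate 12) to 3 members at an unadjusted p below 0.05, a median difference from -0.25 to -0.09, and 0 (without KO replicate 13) to 26 (without WT replicate 10) clusters called, with 17 without KO replicate 11, 19 without KO replicates 12, 3 or 8, 11 without KO replicate 7 and 4 without WT replicate 1. Over all clusters, array weights called 30, median centring 12, quantile normalisation 1 and the fit without dim clusters 4, in which 33 members were tested and 0 had an unadjusted p below 0.05; WT with KO replicates 11 to 13 alone left 1 member below it. With 3 KO arrays behind each difference, and a median SE of 0.25, a difference of the size of the members' median was not detectable.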
